A study of Mus musculus with 3 samples.

Results

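Liver RNA of mice on a high-fat diet given the sulfated oligosaccharide DfCS-Ib was compared with liver RNA of mice on the same diet without it, gene by gene. Both groups, and the regular chow group whose values stand beside them here, were male mice aged 14 weeks, of a strain that the labels give as C57BL/6 and, in the housing notes, as C57BL/6J. The notes put 8 mice in a group and count 5 groups, of which they describe these 3. The HFD + DfCS-Ib mice received 40 mg/kg by oral gavage in distilled water. Each group is represented by 1 library of total liver RNA, and neither the number of mice behind a library, nor a gavage of water in the other groups, nor the feeding state and hour at sampling is given in the sources used here. DfCS-Ib is a code name, described by the series only as a sulfated oligosaccharide. Genes entered the comparison when the mean of their levels in the HFD and HFD + DfCS-Ib libraries reached 1 CPM, where CPM is the count scaled to the library's own total. This took in 13183 of the 41799 genes listed, of which 11435 (86.7%) are protein-coding.

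The liver makes cholesterol from acetyl-CoA through mevalonate, lanosterol and a series of sterol intermediates. When sterols are scarce in the endoplasmic reticulum, the SREBP transcription factors are escorted out by SCAP, cleaved and sent to the nucleus, where SREBP-2 favours genes of sterol synthesis and SREBP-1c those of fatty acid synthesis. INSIG proteins retain the complex when sterols are plentiful. Fatty acid oxidation is governed by the nuclear receptor PPAR alpha, which is active in fasting, and the acute phase proteins are secreted by hepatocytes in response to interleukin-6 and related cytokines through STAT3 and C/EBP factors.

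The HFD library held 12279537 counts and the HFD + DfCS-Ib library 10969699, against 11028671 for chow. A ratio here is DfCS-Ib CPM over HFD CPM, and the range in parentheses beside a fold is its 95% exact (Clopper-Pearson) interval from the split of the gene's counts between the libraries. With 1 library a side no difference has a replicate check, no p-value was computed, and the intervals cover counting error only. A gene was called when its ratio reached 2-fold in either direction with the interval clear of 1. By this rule 931 genes, or 7.06% of those tested, were called: 389 (2.95%) were higher and 542 (4.11%) lower in the DfCS-Ib library, so that 41.8% of the called genes were higher. With TMM scaling factors the split was 489 higher and 424 lower (53.6% higher), and with DESeq2 size factors 488 and 427 (53.3%). The median log2 ratio of all genes tested was -0.115 and moved by 0.1001 with TMM factors. The medians of gene lists below are therefore given relative to that of all genes tested, and the sign of such a relative median does not depend on the factor. The lists were chosen with earlier results of these data known. Of the tested genes in the function lists 16.1% were called. The distance of a list from all genes thus describes these libraries and is no independent evidence. In all, 77.7% of the genes tested lay within 1.5-fold, 80 were called at 4-fold or more higher and 98 at 4-fold or more lower. The whole interval lay beyond 2-fold for 358 genes (2.72%), 169 of them higher (1.28%) and 189 lower (1.43%). The called share was 11.8% among genes of 1 to 5 CPM and 4.11% among those of 20 to 100 CPM, and 10.3% among the 117 genes of 1000 CPM and more.

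**Figure D1:**
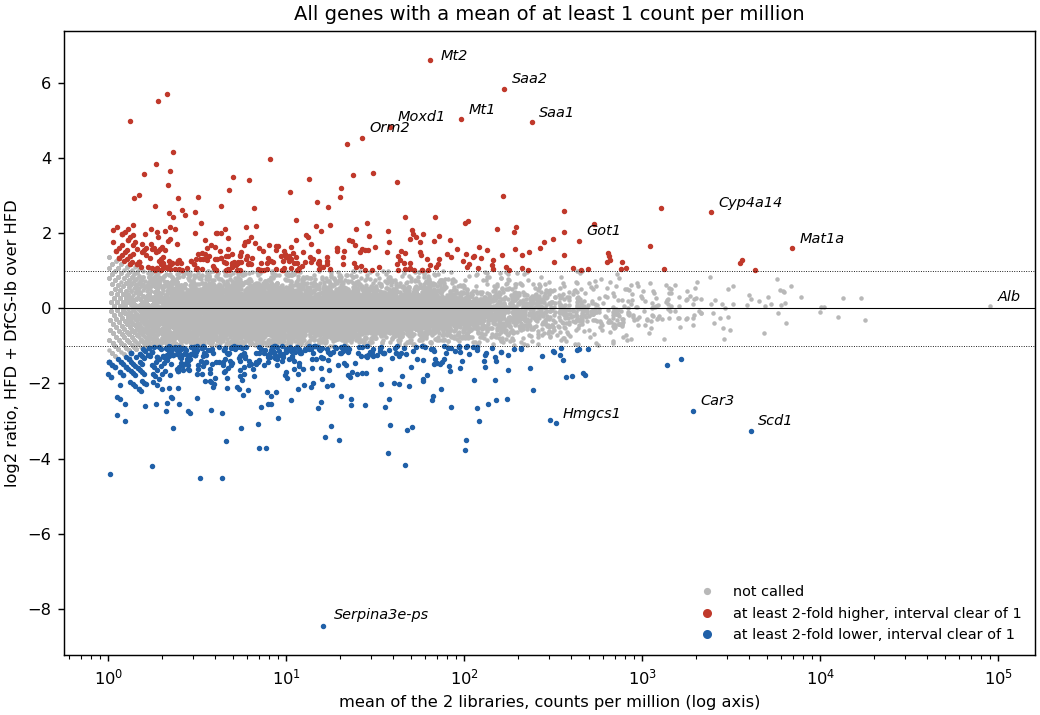
Log2 ratio of the HFD + DfCS-Ib over the HFD library (vertical axis) against the mean CPM of both (horizontal log axis) for the genes tested, 1 point a gene. Red points were called higher, blue points lower, and dotted lines mark 2-fold. The 5 genes with 0 counts in one library are among the 389 called higher and 542 called lower. They have no finite ratio and are not drawn. Most genes lie in a band around 0, with Mt2 and Saa2 at the top and Serpina3e-ps at the bottom.

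Every measured enzyme gene of the path from acetyl-CoA to lanosterol was lower in the DfCS-Ib library. All 11 of 11 were called lower, and their median log2 ratio was -2.54 relative to all genes tested. Summed over the 11 genes the level was 187 CPM in the chow, 1204 CPM in the HFD and 195 CPM in the DfCS-Ib library. Hmgcs1, which condenses acetoacetyl-CoA to HMG-CoA, measured 68.6, 583 and 70.1 CPM in the chow, HFD and DfCS-Ib libraries, and was 8.32-fold lower with DfCS-Ib than on HFD alone (7.72 to 8.97). Mevalonate is phosphorylated by Mvk, at 25.9 and 4.10 CPM in the HFD and DfCS-Ib libraries, and then by Pmvk, at 63.3 and 11.8 CPM. The decarboxylase Mvd measured 30.4 CPM on HFD and 2.83 CPM with DfCS-Ib, a 10.8-fold difference (7.44 to 16.1). The isomerase Idi1 measured 12.4 and 1.46 CPM and was 8.49-fold lower (5.06 to 15.2), and Fdps, which makes farnesyl diphosphate, measured 36.6 and 3.19 CPM and was 11.5-fold lower (8.12 to 16.7). These 3 genes had the fewest counts of the path in the DfCS-Ib library, and their intervals are the widest. The genes of the enzymes that make, oxidise and cyclise squalene, Fdft1, Sqle and Lss, were lower by 5.39-fold (4.68 to 6.23), 8.93-fold (7.35 to 10.9) and 4.04-fold (3.45 to 4.76). Acat2, the cytosolic thiolase at the entry, was lower by 4.03-fold (3.37 to 4.84).

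**Figure D2:**
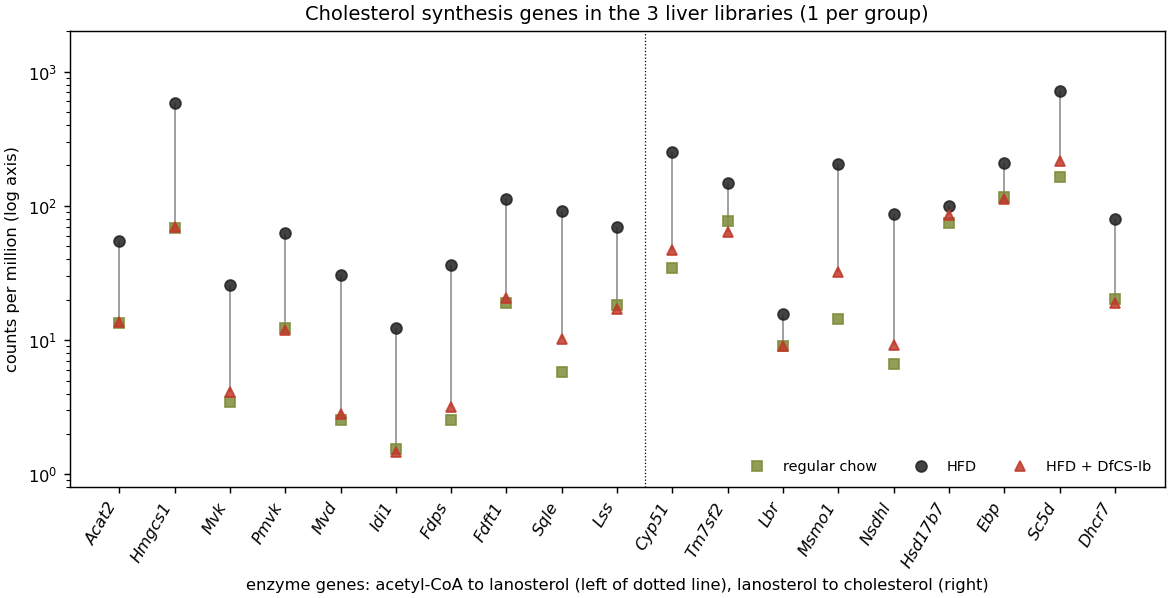
CPM (vertical log axis) of 19 cholesterol synthesis genes in approximate enzyme order in the chow (squares), HFD (circles) and HFD + DfCS-Ib (triangles) libraries, 1 library each, with a grey line joining the HFD and DfCS-Ib values. The HFD circle is the highest of the 3 points for each gene shown; Hmgcs1 stood at 583 CPM on HFD and at 70.1 CPM with DfCS-Ib.

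Between lanosterol and cholesterol 6 of 10 genes were called lower and 0 higher, with a median of -1.36 relative to all genes tested. All 10 ratios were below 1. Nsdhl, which acts with Msmo1 in removing methyl groups from the sterol ring, measured 86.5 CPM on HFD and 9.21 CPM with DfCS-Ib and was 9.39-fold lower (7.65 to 11.6). Msmo1 measured 204 and 32.4 CPM and was 6.31-fold lower (5.65 to 7.07). Cyp51, the demethylase that opens this segment, was lower by 5.40-fold (4.92 to 5.94), Dhcr7 by 4.22-fold (3.62 to 4.92), Sc5d by 3.33-fold (3.19 to 3.49) and Tm7sf2 by 2.32-fold (2.13 to 2.53). Among the 4 members below the threshold, Lbr, Hsd17b7 and Ebp had log2 ratios of -0.80, -0.23 and -0.89. Ebp, a sterol isomerase, measured 207 CPM on HFD and 112 CPM with DfCS-Ib.

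Promoter sequences are shown for sterol genes and the fatty acid synthesis gene Fasn, all with large folds. The CCAAT box, bound by NF-Y, is a known partner of SREBP sites. They come from RefSeq (GRCm38.p6, the assembly named mm10 in the labels), run 5′ to 3′ toward the gene and end before its start. Capitals mark CCAAT or its reverse complement ATTGG and, in Hmgcs1 alone, the sterol regulatory element pattern TCACNCCAC.
Hmgcs1: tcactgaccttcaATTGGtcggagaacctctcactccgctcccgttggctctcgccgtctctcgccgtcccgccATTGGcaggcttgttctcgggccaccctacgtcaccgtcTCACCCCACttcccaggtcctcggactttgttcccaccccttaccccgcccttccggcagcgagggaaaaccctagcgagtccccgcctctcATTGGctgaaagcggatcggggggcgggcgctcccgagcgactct
Mvd: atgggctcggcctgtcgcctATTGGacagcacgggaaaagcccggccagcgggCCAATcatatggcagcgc
Idi1: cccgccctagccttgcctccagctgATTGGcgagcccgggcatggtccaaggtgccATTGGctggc
Msmo1: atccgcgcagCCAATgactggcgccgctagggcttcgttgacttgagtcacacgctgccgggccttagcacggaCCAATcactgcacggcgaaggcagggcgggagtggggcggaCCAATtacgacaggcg
Nsdhl: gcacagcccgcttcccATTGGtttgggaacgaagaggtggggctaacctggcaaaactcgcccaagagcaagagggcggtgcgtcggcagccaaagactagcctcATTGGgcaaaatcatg
Fasn: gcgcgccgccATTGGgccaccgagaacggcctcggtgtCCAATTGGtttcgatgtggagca
The windows are chr13:119690101-119690350 (plus strand) for Hmgcs1, chr8:122443432-122443502 (minus) for Mvd, chr13:8885536-8885601 (plus) for Idi1, chr8:64733618-64733748 (minus) for Msmo1, chrX:72918396-72918516 (plus) for Nsdhl and chr11:120824587-120824647 (minus) for Fasn. In the 250 bases before the start, on either strand, CCAAT was found in 6 of the 7 promoters of the mevalonate to lanosterol list that could be matched (85.7%) and in 8 of 9 of the lanosterol to cholesterol list (88.9%). It was found in 5 of 11 of the fatty acid synthesis list (45.5%) and in 35.7% of all 19556 promoters matched to a gene of the files. The endoplasmic reticulum chaperones, of which 0 of 19 were called, held it in 16 of 17 promoters (94.1%). The pattern TCACNCCAC was found in 1.04% of all promoters and in 1 of 7 of the mevalonate to lanosterol list. In the lanosterol to cholesterol and fatty acid synthesis lists it was found in 0 of 9 and 0 of 11. In Hmgcs1 it began 137 bases before the start, with CCAAT boxes beginning 237, 176 and 45 bases before it. In Fasn the boxes at 62 and 59 bases overlap. These letters describe the windows and are not shown to be bound.

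The genes that control SREBP were unequal among themselves. Of 14 in the list 4 were called lower and 0 higher. Srebf1, which encodes SREBP-1, measured 17.1, 214 and 26.7 CPM in the chow, HFD and DfCS-Ib libraries and was 8.01-fold lower with DfCS-Ib (7.10 to 9.07). Srebf2, which encodes SREBP-2, measured 71.3 CPM on HFD and 39.8 CPM with DfCS-Ib, a log2 ratio of -0.84. Insig1 was 4.50-fold lower (4.20 to 4.83), whereas Insig2 had a log2 ratio of 0.50 and the escort Scap one of -0.01. Stard4, a carrier of cholesterol between membranes, was 3.76-fold lower (3.42 to 4.15). Srebf1 overlaps gene models on both strands and, as the strand setting of the counting is not given, reads of overlapping models cannot be told apart. Of the other genes named here, Ciart, Onecut1 and Txnrd1 also overlap models on both strands. Acly, Cars, Fads1, Gclm, ND4, Pim3, Plin2 and Tm7sf2 overlap one on their own strand. Acaca, Acss2, Arntl, Car3, Clock, COX1, Cpt1a, Cryab, Ctcfl, Cyp17a1, Cyp2u1, Dbp, Elovl6, Fdft1, Fgf21, Fgg, G0s2, Gadd45a, Gm32845, Gpam, Hnf4a, Ifit1, Igf1, Il1b, Irs2, Klf10, Lbr, Lgr5, Lss, Me1, Mtf1, Npas2, Per2, Plin4, Pltp, Por, Rps6ka1, Sds, Slc16a5, Slc1a2, Slc30a1, Slc7a2, Socs2, Ttll8, Ttr, Tuba4a, Txnip, Usp2 and Zbtb16 overlap one on the opposite strand.

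Genes of fatty acid synthesis were lower as well. Of 15 enzymes and activators tested 11 were called lower and 0 higher, with a median of -1.41 relative to all genes tested and a summed level of 10490 CPM on HFD and 2297 CPM with DfCS-Ib, against 2891 CPM on chow. Scd1, the desaturase that makes oleate, accounted for most of that sum, with 1288, 7386 and 770 CPM in the chow, HFD and DfCS-Ib libraries. It was 9.60-fold lower with DfCS-Ib (9.38 to 9.81) and lost more CPM than any other gene tested. The supply of cytosolic acetyl-CoA was represented by Acly, which cleaves citrate and was lower by 3.16-fold (2.93 to 3.40), and Acss2, which activates acetate and was lower by 3.76-fold (3.46 to 4.09). Acaca, the cytosolic carboxylase that makes malonyl-CoA, was lower by 2.76-fold (2.28 to 3.36), whereas Acacb, its mitochondrial counterpart, measured 66.0 and 65.6 CPM. Fasn was lower by 7.92-fold (7.34 to 8.55), and the elongase Elovl6 by 2.53-fold (2.27 to 2.84). Among the desaturases of polyunsaturated fatty acids, Fads1 had a log2 ratio of -0.65 and Fads2 one of 0.39. The activator genes Thrsp, Mid1ip1 and Mlxipl, the last encoding the carbohydrate-response factor ChREBP, were lower by 13.7-fold (11.6 to 16.3), 5.99-fold (4.77 to 7.59) and 2.26-fold (2.11 to 2.43). Me1, malic enzyme, a source of NADPH, was lower by 2.88-fold (2.59 to 3.20). In triglyceride assembly, by contrast, 2 of 9 genes were called higher and 0 lower: the phosphatidate phosphatases Lpin1, at 139 CPM on HFD and 494 CPM with DfCS-Ib (3.56-fold, 3.37 to 3.76), and Lpin2 (2.63-fold, 2.54 to 2.73). The acyltransferases Gpam and Dgat2 had log2 ratios of -0.40 and -0.33.

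Several genes of sugar metabolism were lower alongside. In the list of glycolysis, glycogen and fructose 6 of 20 were called lower and 2 higher, with a median of -0.40 relative to all genes tested. The pyruvate kinase gene Pklr measured 30.6, 232 and 39.9 CPM in the chow, HFD and DfCS-Ib libraries and was lower by 5.81-fold (5.25 to 6.43), the glucose transporter gene Slc2a2 by 2.43-fold (2.30 to 2.57), and Khk, which phosphorylates fructose, by 2.38-fold (2.27 to 2.50). Ppp1r3c, a glycogen-targeting subunit of protein phosphatase, was lower by 2.54-fold (2.29 to 2.83) and the glycogen phosphorylase gene Pygl by 2.12-fold (2.03 to 2.21), the last short of 2-fold with TMM factors. Higher were Txnip, at 88.8 and 236 CPM, and the kinase gene Pfkfb3, at 15.7 and 33.4 CPM.

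PPAR alpha and its targets lay on the other side. Of 23 tested, 9 were called higher and 0 lower, 20 had ratios above 1, and the median was 0.75 relative to all genes tested. Their summed level was 14880 CPM on chow, 8536 CPM on HFD and 14650 CPM with DfCS-Ib. The omega-hydroxylase genes made up most of the gain: Cyp4a14 measured 5888, 706 and 4158 CPM in the chow, HFD and DfCS-Ib libraries and Cyp4a10 2178, 343 and 2190 CPM. Close copies in this family, Cyp4a31 (10.2-fold, 8.20 to 12.8) and Cyp4a32 (2.61-fold, 2.27 to 3.005), may share reads with them. Slc22a5, the carnitine transporter gene, was higher by 3.93-fold (3.45 to 4.50), the thioesterase gene Acot1 by 3.56-fold (3.10 to 4.09) and the coactivator gene Ppargc1a by 2.57-fold (2.10 to 3.15). Ppara itself measured 301 and 604 CPM, a fold of 2.00 (1.92 to 2.09) whose interval reaches below the threshold. Fgf21, a hormone of fasting, had 10 and 101 counts. Fabp1, Aldh3a2 and Cyp2j5 were the 3 members below 1, with log2 ratios of -0.45, -0.34 and -0.29. Along the mitochondrial path of beta-oxidation and ketogenesis the picture differed from gene to gene. There 1 of 20 genes was called (5%, beside 7.06% of all genes tested). It was Cpt1a, which commits acyl groups to the mitochondrion, at 381 and 891 CPM (2.34-fold higher, 2.26 to 2.42). Hadh and Hadhb, which act within the beta-oxidation cycle, had log2 ratios of -0.45 and 0.44, and the list's median of 0.07 relative to all genes tested lay close to 0. In the peroxisome the bifunctional enzyme gene Ehhadh was higher by 2.08-fold (2.02 to 2.14) and the transporter gene Abcd2 lower by 5.33-fold (4.20 to 6.84).

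On the lipid droplet, 5 of 16 genes were called higher and 1 lower, with a median of 0.30 relative to all genes tested. Both the triglyceride lipase gene Pnpla2, at 47.1 and 121 CPM, and the gene of its inhibitor G0s2, at 36.8 and 293 CPM, were higher with DfCS-Ib. G0s2 was higher by 7.97-fold (7.22 to 8.81) and Pnpla2 by 2.57-fold (2.33 to 2.84). The coat protein gene Plin5 was higher by 2.70-fold (2.47 to 2.96), its relative Plin4 by 2.59-fold (2.07 to 3.24), and Cidec, a droplet fusion gene, by 2.62-fold (1.97 to 3.52). Plin2, the most abundant coat gene in counts, measured 612 and 772 CPM. Fitm1 was lower by 3.37-fold (2.76 to 4.13).

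The gluconeogenic, insulin-repressed and amino acid genes that were called all lay higher. In gluconeogenesis this was 2 of 12, in the insulin list 4 of 15 and in amino acid breakdown 5 of 25, with medians of 0.53, 0.40 and 0.38 relative to all genes tested and 0 called lower in each. Pck1, which makes phosphoenolpyruvate, measured 4470, 2152 and 4964 CPM in the chow, HFD and DfCS-Ib libraries and was 2.31-fold higher (2.27 to 2.34). G6pc, the phosphatase gene that releases glucose, measured 778 and 741 CPM. Igfbp1, repressed by insulin, was higher by 3.03-fold (2.87 to 3.21) and Igfbp2 by 2.44-fold (2.36 to 2.53), whereas the receptor gene Insr and the adaptor gene Irs2 had log2 ratios of 0.44 and 0.31. Got1, an aspartate aminotransferase gene, measured 1216, 198 and 685 CPM in the chow, HFD and DfCS-Ib libraries and was higher by 3.46-fold (3.31 to 3.62). The tyrosine aminotransferase gene Tat was higher by 2.41-fold (2.37 to 2.44), and Oat, Sds and Aass by 2.06-fold (2.01 to 2.11), 2.08-fold (1.95 to 2.20) and 2.07-fold (1.99 to 2.16). In the urea cycle 1 of 11 genes was called, Asl, higher by 2.36-fold (2.29 to 2.44). That share of 9.09% lies close to the 7.06% of all genes tested.

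Methionine metabolism held the largest gain in counts of any gene. Mat1a, which makes S-adenosylmethionine in the adult liver, measured 17620 CPM on chow, 3460 CPM on HFD and 10480 CPM with DfCS-Ib, a gain of 7015 CPM over HFD and a fold of 3.03 (2.99 to 3.06). Nnmt, which consumes S-adenosylmethionine to methylate nicotinamide, was higher by 4.49-fold (4.16 to 4.83), and Cth, the last enzyme of transsulfuration, by 2.06-fold (2.00 to 2.13). These were the 3 called of 17, with 0 lower. The abundant methyltransferase genes Gnmt, at 2103 and 1759 CPM, and Bhmt, at 1410 and 1400 CPM, were not called.

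**Figure D3:**
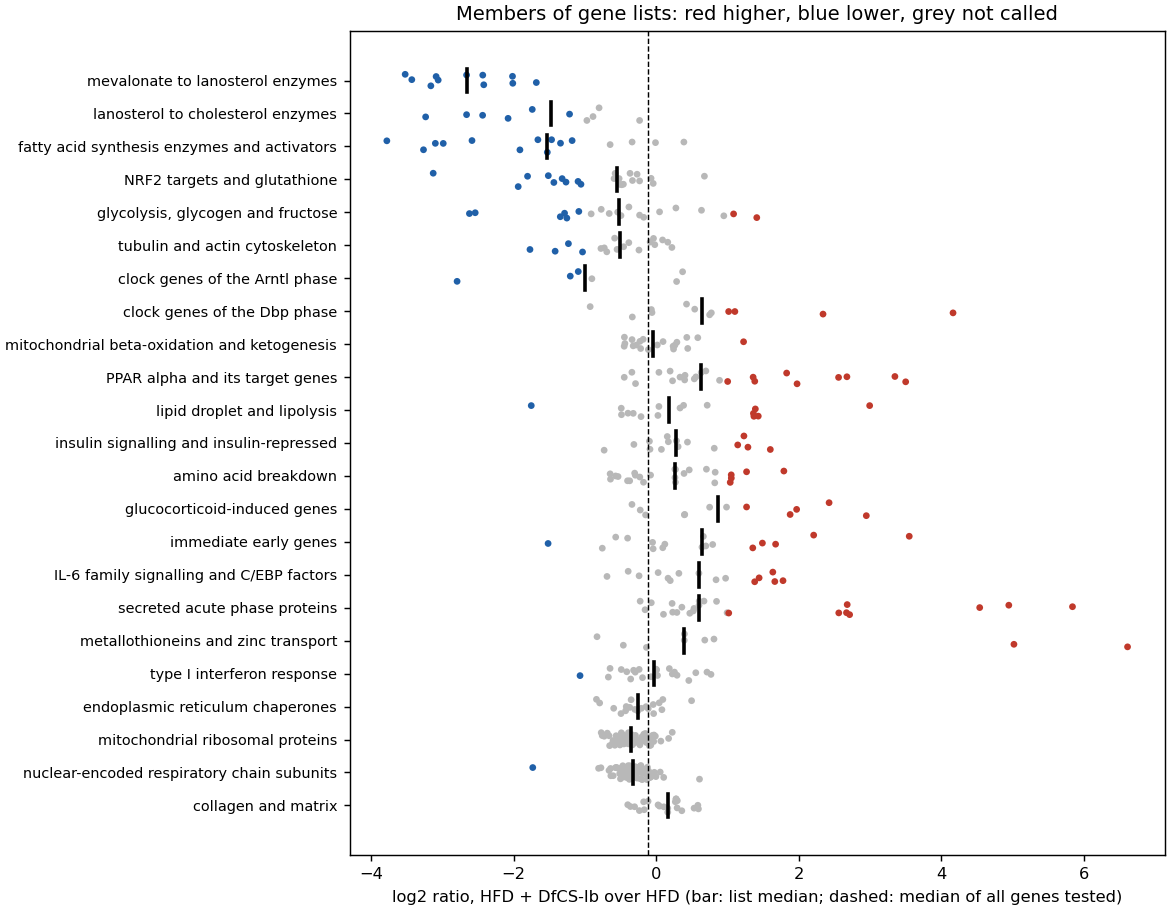
Log2 ratio of DfCS-Ib over HFD (horizontal axis) for the tested members of 23 gene lists, 1 point a gene with vertical jitter for legibility only; red and blue mark members called higher and lower, black bars the list medians and the dashed line the median of all genes tested (-0.115). Points of the sterol and fatty acid synthesis lists lie to the left, those of the PPAR alpha, glucocorticoid-induced, immediate early and acute phase lists mostly to the right, and those of the mitochondrial ribosomal list in a narrow band.

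A cluster of neighbours stood around Pck1 on chromosome 2, singled out after the values were seen. The noncoding genes Gm36691 (173143207 to 173148396, minus strand) and Ctcflos (173124749 to 173133204, plus strand) lie 4.7 and 19.9 kb before Pck1 (173153073 to 173159254, plus strand) in mm10. Gm36691 measured 45.1, 3.67 and 26.1 CPM in the chow, HFD and DfCS-Ib libraries and was higher with DfCS-Ib by 7.11-fold (5.18 to 9.97). Ctcflos measured 54.0, 4.56 and 35.6 CPM and was higher by 7.82-fold (5.90 to 10.5). Ctcfl and LOC105244392, the other protein-coding genes tested within 50 kb, had log2 ratios of 1.41 and 2.19 and were called higher. Ctcflos overlaps LOC105244392, and Gm36691 overlaps a model on the other strand, so the reads of these models may be shared.

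Genes induced by glucocorticoids had a median of 0.98 relative to all genes tested, with 5 of 12 called higher and 0 lower. Zbtb16 measured 80.9, 21.6 and 116 CPM in the chow, HFD and DfCS-Ib libraries and was 5.37-fold higher (4.70 to 6.15). Gadd45b had 9 counts on HFD and was 7.71-fold higher (3.81 to 17.7), and the leptin receptor gene Lepr was 3.68-fold higher (2.80 to 4.88). Against these, Tsc22d3 and Sgk1, both textbook targets of the receptor, had log2 ratios of -0.22 and -0.15, and the receptor gene Nr3c1 one of -0.34. Among immediate early genes 5 of 17 were called higher and 1 lower (median 0.76 relative to all genes tested). Egr1, a zinc finger factor gene, measured 17.6, 3.75 and 43.9 CPM in the chow, HFD and DfCS-Ib libraries and was 11.7-fold higher (8.64 to 16.2). Klf10, Btg2, Junb and Fos were higher by 4.62-fold (3.59 to 6.01), 3.19-fold (2.63 to 3.89), 2.81-fold (2.34 to 3.38) and 2.56-fold (1.33 to 5.19), and Gadd45a was lower by 2.86-fold (1.37 to 6.52).

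The clock genes split by phase. Of the genes that peak with Arntl, 3 of 6 were called lower and 0 higher, and of those that peak with Dbp 4 of 12 were called higher and 0 lower. The medians were -0.88 and 0.76 relative to all genes tested. Npas2, a partner of BMAL1, measured 7.57 CPM on HFD and 1.09 CPM with DfCS-Ib and was 6.92-fold lower (3.78 to 13.9). Arntl, which encodes BMAL1, measured 30.3 and 16.2 CPM, a log2 ratio of -0.90, and Cry1 was lower by 2.13-fold (1.67 to 2.73), short of 2-fold with TMM factors. Ciart, a repressor of the clock, had 3 and 48 counts, a ratio of 17.9 (5.77 to 89.9). Usp2 was higher by 5.06-fold (3.66 to 7.13), Nr1d1, which encodes REV-ERB alpha, by 2.15-fold (1.94 to 2.39), and Dbp by 2.02-fold (1.52 to 2.70). Per1 and Per2 had log2 ratios of 0.75 and -0.33, and Clock one of 0.29.

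Secreted acute phase proteins were higher in 8 of 24 cases and lower in 0, with 21 ratios above 1 and a median of 0.72 relative to all genes tested. The serum amyloid genes Saa1 (chromosome 7, 46740497 to 46743070) and Saa2 (46751777 to 46754314) are near-identical neighbours that may share reads. Saa1 had 186 counts on HFD and 5118 with DfCS-Ib, and Saa2 71 and 3627. In CPM, Saa1 measured 11.2, 15.2 and 467 and Saa2 4.72, 5.78 and 331 in the chow, HFD and DfCS-Ib libraries, so that both were near the chow level on HFD alone. Beside these, the 14 markers of macrophages and Kupffer cells summed to 731 CPM on HFD and 1090 CPM with DfCS-Ib, and their part in the values of this group was not tested. The orosomucoid gene Orm2 measured 5.53, 2.20 and 51.0 CPM and was 23.2-fold higher (15.8 to 35.6). Its abundant relative Orm1 measured 306 and 610 CPM and was called higher with TMM factors. Lcn2, whose product binds iron-laden siderophores, was 6.40-fold higher (4.82 to 8.64) and Il1rn, the interleukin-1 receptor antagonist gene, 6.56-fold higher (3.69 to 12.5), while the heme scavenger gene Hpx, at 2859 and 5789 CPM, was 2.02-fold higher (2.00 to 2.05). The fibrinogen genes Fga, Fgb and Fgg had log2 ratios of 0.10, 0.29 and 0.23. Signalling genes of the interleukin-6 family and C/EBP factors were called higher in 5 of 15 cases and lower in 0. These were the receptor genes Il6ra (3.43-fold, 3.05 to 3.87) and Il1r1 (2.72-fold, 2.46 to 3.02), the feedback inhibitor Socs3 (3.17-fold, 2.30 to 4.42), the kinase Pim3 (2.61-fold, 2.39 to 2.84) and Cebpb, at 59.1 and 184 CPM (3.11-fold, 2.85 to 3.39). Cebpa had a log2 ratio of -0.24 and Stat3 one of 0.03. The NF-kB list differed in direction within itself: Vcam1 was higher by 4.11-fold (3.48 to 4.87) and Cd14 by 2.02-fold (1.46 to 2.81), Il1b was lower by 2.85-fold (1.60 to 5.35), and the inhibitor gene Nfkbia had a log2 ratio of -0.14. In the complement list 1 of 20 was called (5%, beside 7.06% of all genes tested), Cfd, with 77 counts on HFD and 3 with DfCS-Ib. Cfd is also an adipocyte marker. Of the 7 adipocyte markers 2 were tested, 1 above and 1 below a ratio of 1. All 7 summed to 12.9 CPM on HFD and 10.5 CPM with DfCS-Ib.

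Promoter windows of 2 acute phase genes show the C/EBP pattern TTGCNNAA in capitals, since C/EBP factors are known regulators of this group.
Orm2: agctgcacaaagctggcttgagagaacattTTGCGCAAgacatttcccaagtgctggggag
Lcn2: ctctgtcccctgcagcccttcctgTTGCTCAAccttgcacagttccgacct
The windows are chr4:63362299-63362359 (plus strand) for Orm2 and chr2:32387929-32387979 (minus) for Lcn2. The pattern began 120 bases before the start of Orm2, where it reads the same on both strands, and 216 bases before that of Lcn2. It was found in 11 of 20 matched promoters of the acute phase list (55%) and in 9.69% of all promoters. Among called genes it was found in 34 of 245 promoters of those higher (13.9%) and 32 of 336 of those lower (9.52%). The drug-metabolising cytochromes and oxidases, of which 0 were called higher, held it in 5 of 15 promoters (33.3%).

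Metallothioneins, small proteins that bind zinc and copper and are induced through MTF1, held the largest fold above 1 among the named genes. Mt2 (chromosome 8, 94172618 to 94173567) had 16 counts on HFD and 1396 with DfCS-Ib and measured 295, 1.30 and 127 CPM in the chow, HFD and DfCS-Ib libraries, a 97.7-fold difference between the last 2 (59.9 to 171). Mt1 (94179088 to 94180327) measured 423, 5.78 and 187 CPM and was 32.4-fold higher (25.6 to 41.6). The HFD library was the low one of the 3 for both genes. The zinc-sensing factor gene Mtf1 had a log2 ratio of 0.40, the exporter gene Slc30a1, another MTF1 target, one of 0.68, and the importer genes Slc39a14 and Slc39a8 ones of 0.39 and -0.14. The promoter of Mt2 is shown with TGCNCNC on either strand in capitals, a looser pattern than the core of the metal response element.
Mt2: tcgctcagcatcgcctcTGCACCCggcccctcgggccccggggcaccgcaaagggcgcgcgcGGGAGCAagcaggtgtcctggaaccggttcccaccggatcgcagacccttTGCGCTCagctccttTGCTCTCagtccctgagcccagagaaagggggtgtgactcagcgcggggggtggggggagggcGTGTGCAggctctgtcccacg
The window is chr8:94172378-94172588 (plus strand). It held 5 matches, which began 223, 178, 128, 113 and 50 bases before the start. The pattern is short and loose, was found in 45.3% of all promoters, and a match need not be a metal response element.

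Many glutathione transferases were lower. Of 22 genes of the NRF2 and glutathione list, 9 were called lower and 0 higher, 21 had ratios below 1, and the median was -0.43 relative to all genes tested. Gstm3 measured 3.81, 31.8 and 3.65 CPM in the chow, HFD and DfCS-Ib libraries and was 8.73-fold lower (6.30 to 12.4). Gsta3, the most abundant in counts of those called, measured 521, 2035 and 713 CPM and was 2.85-fold lower (2.78 to 2.93). Gclc, the catalytic subunit of the enzyme that limits glutathione synthesis, was lower by 3.49-fold (3.32 to 3.67), while Gclm, its modifier subunit, had a log2 ratio of -0.52. Nqo1, Srxn1 and Txnrd1, further NRF2 targets, had log2 ratios of -0.48, -0.04 and -0.27. Gstm1 and Gstt1 were short of 2-fold with TMM factors, and the transferases are close copies whose reads may be divided among them. Among drug-metabolising cytochromes and oxidases 2 of 21 were called (9.52%, close to the 7.06% of all genes tested). These were Cyp2c55 and Cyp2u1, lower by 4.68-fold (3.23 to 6.96) and 4.10-fold (3.05 to 5.61). Fmo2 passed the call, higher, once TMM factors were applied. Cyp3a11 and Cyp2e1, abundant members, measured 3798 and 3990 CPM and 6990 and 8603 CPM. Por, the reductase that passes electrons to them, measured 735, 186 and 885 CPM in the chow, HFD and DfCS-Ib libraries and was 4.76-fold higher (4.54 to 4.98). The carboxylesterase genes Ces1e, Ces2e, Ces1g and Ces1f were lower by 2.67-fold (2.46 to 2.90), 2.38-fold (2.22 to 2.54), 2.14-fold (2.02 to 2.28) and 2.10-fold (2.00 to 2.20), the last 2 short of 2-fold with TMM factors.

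Targets of growth hormone and genes of sex-biased expression were mixed in direction. In the growth hormone list 2 of 12 were called lower and 0 higher. Cish, a feedback gene of STAT5, measured 22.6 and 5.65 CPM and was 4.01-fold lower (3.03 to 5.36), and Onecut1, which encodes HNF6, was 5.09-fold lower (3.96 to 6.62), while Socs2, another STAT5 target, had a log2 ratio of 0.60 and Igf1 one of 0.13. Of 15 male-biased genes 2 were called higher and 3 lower. Moxd1, a monooxygenase-like gene, had 32 and 811 counts, and measured 1.27, 2.61 and 73.9 CPM in the chow, HFD and DfCS-Ib libraries, a 28.4-fold difference (19.9 to 41.8) in which the DfCS-Ib library alone is high. Hsd3b5 measured 2.90, 295 and 54.8 CPM and was 5.38-fold lower (4.93 to 5.88). Of 7 female-biased genes 2 were called higher: Nipal1, a magnesium transporter gene (8.58-fold, 5.73 to 13.3), and Cyp17a1 (4.28-fold, 3.48 to 5.31).

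Retinoic acid hydroxylases differed in direction from each other. Cyp26b1 measured 35.3, 2.28 and 24.6 CPM in the chow, HFD and DfCS-Ib libraries and was 10.8-fold higher (7.30 to 16.6), and Cyp26a1 measured 20.5, 17.9 and 3.28 CPM and was 5.46-fold lower (3.83 to 8.00). The retinal reductase gene Rdh11 was lower by 5.10-fold (4.44 to 5.87). Among transporters, the water channel gene Aqp8 had 2301 counts on HFD and 180 with DfCS-Ib, 11.4-fold lower (9.81 to 13.4). Car3, a carbonic anhydrase gene, measured 96.8, 3370 and 509 CPM in the chow, HFD and DfCS-Ib libraries and was 6.62-fold lower (6.44 to 6.81). Slc16a5, of the monocarboxylate transporter family, was 9.18-fold higher (6.82 to 12.6), the arginine transporter gene Slc7a2 3.17-fold higher (3.08 to 3.26) and the anion transporter gene Slco1a4 2.92-fold higher (2.70 to 3.17). Over whole families named by symbol, a view chosen after the values were seen, 9 of 64 Cyp genes were called higher and 4 lower (20.3% called). Of 197 Slc genes 13 were called higher and 10 lower (11.7%). The called share was 17.9% of 28 serpin genes, 5.26% of 38 ABC transporter genes and 4.68% of 278 Zfp genes, beside 7.06% of all genes tested.

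Several groups had few or no called members, beside 7.06% of all genes tested. In the smaller of them 0 or 1 call lies close to that share. Of 72 mitochondrial ribosomal protein genes 0 were called, yet 69 had ratios below 1 and the median was -0.23 relative to all genes tested. Of 75 nuclear-encoded respiratory chain genes 1 was called and 72 had ratios below 1 (median -0.22 relative to all genes tested). The 7 protein-coding genes of the mitochondrial genome that passed the filter, a group added after the files were seen, had a median of 0.30 relative to all genes tested with 0 called. Cytosolic ribosomal protein genes numbered 83 by symbol, with 1 called, the kinase gene Rps6ka1, which the symbol pattern also takes in and which fell short of 2-fold with TMM factors. Without such kinases 0 of 75 were called. The calls were 0 of 34 proteasome, 0 of 19 endoplasmic reticulum chaperone, 0 of 18 autophagy and 0 of 21 collagen and matrix genes. Type I interferon genes had 1 of 22 called, Oasl1, lower by 2.10-fold (1.68 to 2.63) and short of 2-fold with TMM factors, and Isg15 and Ifit1 had log2 ratios of -0.67 and 0.18. Bile acid synthesis had 1 of 12 called (8.33%, close to the share of all genes tested), Cyp7b1, higher by 2.08-fold (1.99 to 2.17). The rate-limiting gene Cyp7a1 measured 41.5 and 77.8 CPM, a log2 ratio of 0.90, and was called higher with TMM factors. The cytoskeleton list differed from these, with 4 of 18 lower (22.2%) and 0 higher. All 4 were tubulins: Tubb2a (3.41-fold, 3.005 to 3.88), Tuba4a (2.67-fold, 2.47 to 2.88), Tuba1b and Tuba1c, the last short of 2-fold with TMM factors.

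Of 9 hepatocyte markers tested 1 was called, Tat (11.1%, beside 7.06% of all genes tested). Alb measured 89100 CPM on HFD and 91880 CPM with DfCS-Ib, and Apoa1 10370 and 10640 CPM. Asgr1 was listed at 0 in each library. Of the 14 macrophage and Kupffer cell markers 2 were called higher and 0 lower, 13 had ratios above 1, and they summed to 603 CPM on chow. Both are scavenger receptor genes: Cd163, higher by 3.73-fold (3.26 to 4.28), and Marco, by 3.36-fold (2.24 to 5.14). Clec4f and Vsig4, which define Kupffer cells, measured 133 and 213 CPM and 27.1 and 48.0 CPM. In a bulk library more cells of a type and more RNA per cell cannot be told apart. Endothelial markers had 1 of 11 called (9.09%), Lyve1 (2.27-fold higher, 1.83 to 2.82), with a summed level of 484 and 521 CPM. Stellate cell markers had 0 of 11 called, with 345 and 451 CPM. T and NK cell, B cell and neutrophil markers summed to at most 10.3 CPM for each type and library. The exocrine pancreas gene Cela1 measured 13.8 and 5.20 CPM, while 7 other markers of that tissue were listed at 0 in both.

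**Figure D4:**
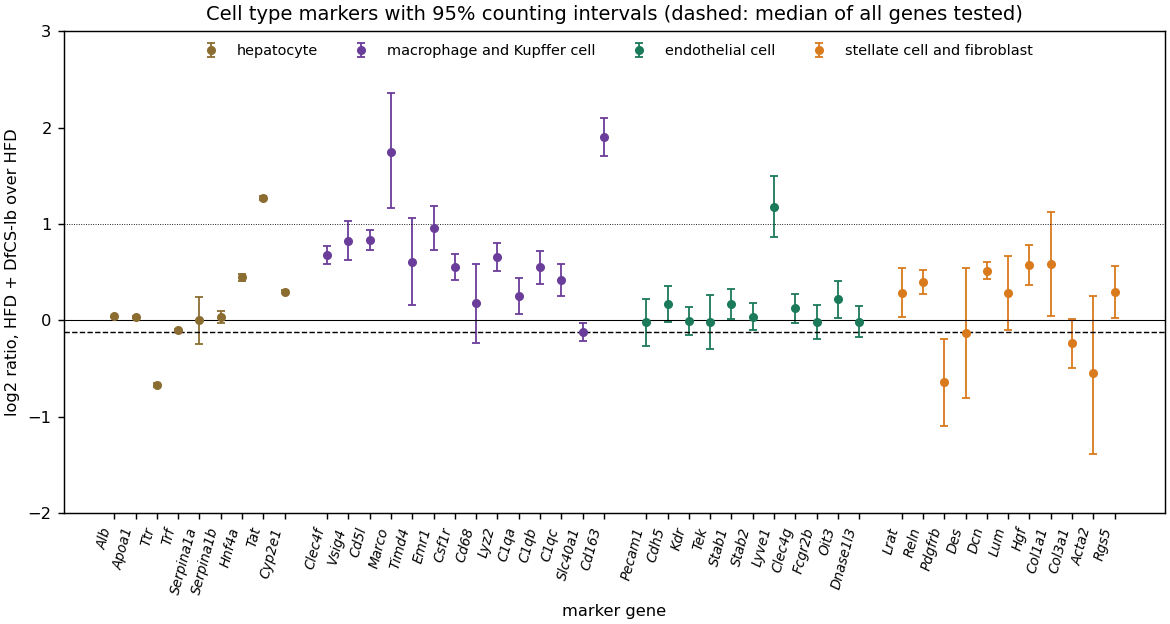
Log2 ratio of DfCS-Ib over HFD (vertical axis) for tested markers of 4 cell types, with 95% counting intervals as bars; the dotted line marks 2-fold and the dashed line the median of all genes tested. Kupffer cell markers lie above 0 except Slc40a1, with Cd163 and Marco highest, whereas endothelial markers other than Lyve1 lie near 0.

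Outside the lists, Scara5, a ferritin receptor gene, had 57 counts on HFD and 620 with DfCS-Ib and was 12.2-fold higher (9.27 to 16.3). The glycylase family gene Ttll8 was 10.7-fold higher (6.02 to 20.6). The lncRNA B930025P03Rik was 15.6-fold higher (8.69 to 30.8). The glycine tRNA gene TrnG of the mitochondrial genome, 68 bases long, was 20.7-fold higher (13.8 to 32.3), at 2.72, 2.04 and 42.1 CPM in the chow, HFD and DfCS-Ib libraries, while the protein-coding gene ND4, 0.7 kb from it, measured 2894 and 2921 CPM. Serpina3e-ps, a pseudogene of the serpin cluster on chromosome 12 (104188794 to 104194860), had 427, 396 and 1 counts in the chow, HFD and DfCS-Ib libraries, a ratio of 354 (63.1 to 14010) below HFD. The DfCS-Ib library alone is low. Its coding neighbours Serpina3f, Serpina3g and Serpina3c had log2 ratios of 0.67, 0.45 and -0.42, and near-identical copies in the cluster may take its reads. Serpina4-ps1, in the same cluster, measured 4.99, 88.3 and 4.92 CPM and was 17.9-fold lower (13.6 to 24.0). Gm36041, 1.1 kb from the vasopressin receptor gene Avpr1a, was 13.1-fold lower (7.31 to 25.8), and Avpr1a measured 53.9 and 32.4 CPM. Gm4956, 19.7 kb from Gsta3, was 5.03-fold lower (3.40 to 7.69). The ion channel gene Hcn3 was 9.16-fold lower (5.06 to 18.2), and the acetyltransferase-like gene Cml5 7.54-fold lower (4.88 to 12.2).

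**Figure D5:**
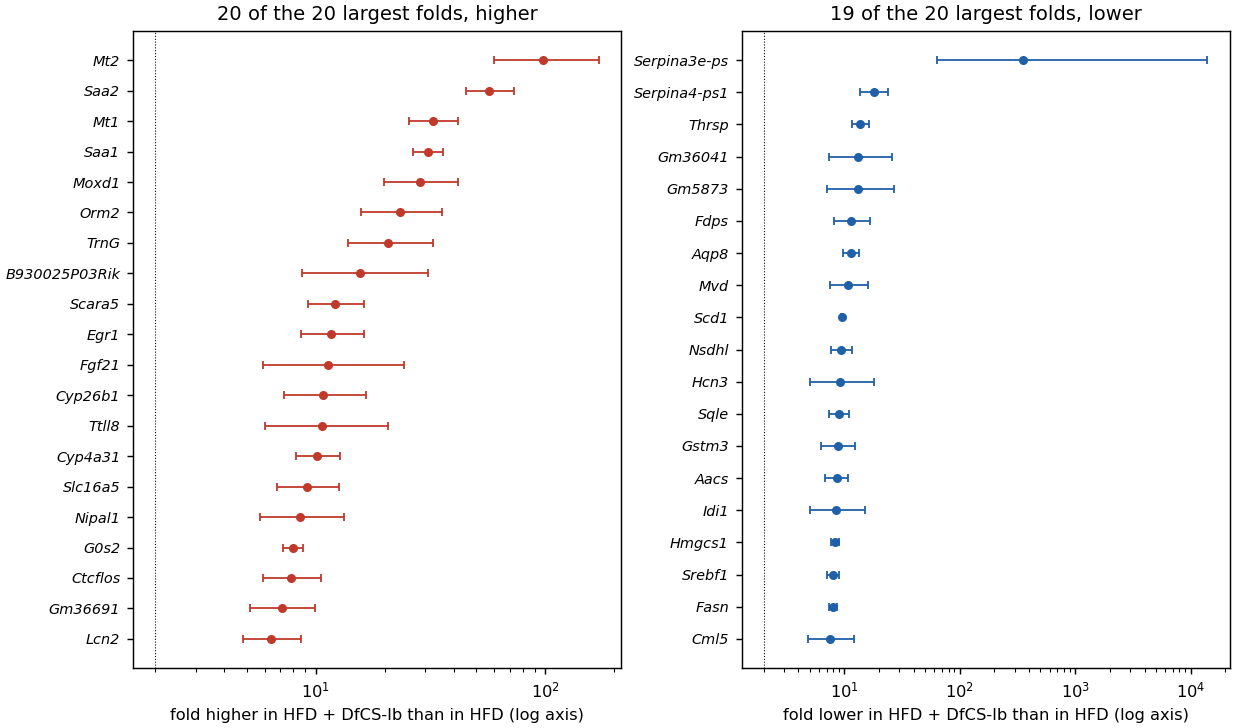
The 20 largest folds higher in the DfCS-Ib library (left) and 19 of the 20 largest lower (right) among genes averaging 5 CPM or more with the interval wholly beyond 2-fold, on log axes; bars are 95% counting intervals and the dotted line marks 2-fold. Mt2 leads at 97.7-fold higher, and Serpina3e-ps, with 1 count in the DfCS-Ib library, has by far the widest interval.

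By amount rather than fold, the gains after Mat1a were led by Cyp4a14, Apob, Tat and Mug1, and the losses after Scd1 by Apoe, Car3, Ttr and COX1. Apob, the structural protein of VLDL, measured 15300 and 18470 CPM, a fold of 1.21 (1.20 to 1.22), and Apoe 19630 and 15870 CPM, a fold of 1.24 lower (1.23 to 1.24). Such narrow intervals reflect depth and not reproducibility. Adh1, alcohol dehydrogenase, measured 2384 and 939 CPM and was 2.54-fold lower (2.48 to 2.60). Among 5 genes with 0 counts in one library, Itga2 and Gm32845 had 26 and 31 counts with DfCS-Ib and 0 on HFD, and Chrna4 and Gm33149 had 36 and 29 counts on HFD and 0 with DfCS-Ib. The remaining 1, Capn11, had 22 counts with DfCS-Ib and 0 elsewhere.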

How the data were processed

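The authors deposited, per the file headers, raw read counts and RPKM for each gene of 3 liver libraries, 1 per group, with gene type, length and position. The submitters' processing notes name TopHat2 and the mm10 genome; how reads were counted, whether by strand, and with which annotation is not given in the sources used here. The files were joined on gene name and position, and 27 symbols turned into dates were recovered by gene ID. Counts were scaled to each library's total. The deposited RPKM served only as an alternative filter, a mean of at least 1 RPKM, with ratios still taken from the counts. Ratios have 95% Clopper-Pearson intervals (Python 3.11.15, scipy 1.17.1); a fold against 0 counts would use a floor of 3 counts (0.244 CPM on HFD, 0.273 CPM with DfCS-Ib). Libraries carry no stated molecular identifiers, so duplicate reads cannot be told apart and the intervals may be too narrow. With 1 library per group, intervals and floors cover counting error at most. The interval and call were tested on simulated counts with known folds that vary by counting error only. That test cannot show how they behave with variation between mice or with duplicate reads. TMM (edgeR 4.0.16) and DESeq2 1.42.0 gave scaling factors only. Named genes were the 20 largest folds per direction with a mean of at least 5 CPM and the interval beyond 2-fold, the 10 largest gains and losses of CPM, up to 4 called members per list and direction, 5 noncoding genes per direction and defining list members. Some members counted in the lists are not reported here by name. The members and the 59 function and 14 cell type lists were chosen with earlier results of these data known. Many genes listed at 0 are not shown to be unexpressed: of 1244 function list genes 88 were at 0 in each library, 31 of them placed off the main chromosomes.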

Additional observations from a re-analysis of the deposited data

How the results depend on the processing

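No paired analysis was possible because each group has 1 library, and no library could be left out. Over all genes the median log2 ratio was -0.014 with TMM factors, and the share of called genes that were higher was 53.6% with TMM and 53.3% with DESeq2 factors. With a mean of at least 5 CPM, 221 genes were higher and 297 lower. On log2 of CPM plus 1 these were 259 and 346, with the whole interval beyond 2-fold 169 and 189, and among genes that overlap no other model, an alternative chosen after seeing the data, 244 and 346. Among lists with a median at least 0.3 from that of all genes, in either direction, the sign of 2 turned. Female-biased genes stood at -0.01 with no filter on low values, and lipid droplet genes at -0.10 among genes that overlap no other model. Sign changes of lists nearer the median of all genes were not counted. Over all alternatives run, 1138 list values stayed within their limits and 39 moved, and for single named genes 1198 stayed and 91 moved. Many of these values could hardly move. A changed scaling factor shifts a list's median and that of all genes alike. The RPKM filter and the stricter interval rule leave each gene's ratio as it was. The counts that stayed are therefore no measure of how stable the values are. With TMM factors 14 list or named genes lost the 2-fold call and 14 gained it. Depth limits genes of 1 to 5 CPM, whose intervals had a median width of 1.69 on the log2 scale, against 0.06 at 1000 CPM and more.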

Other observations

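Iron and heme genes had 1 of 23 called higher and 2 lower. Urod, an enzyme of heme synthesis, measured 71.3 CPM on HFD and 32.4 CPM with DfCS-Ib and was 2.20-fold lower (1.95 to 2.50), and Hamp2, a hepcidin paralog, was 3.78-fold lower (2.45 to 6.04). Hamp, the hepcidin gene, measured 448 and 249 CPM, a log2 ratio of -0.85. In the amino acid response list of ATF4, 3 of 16 were higher and 2 lower: Ddit4, Asns and Trib3 were higher by 2.39-fold (1.90 to 3.02), 2.34-fold (1.53 to 3.66) and 2.35-fold (1.72 to 3.23), while Cars was lower by 2.30-fold (1.88 to 2.83) and the lipoprotein receptor gene Vldlr by 2.44-fold (1.19 to 5.39). Of 15 tRNA synthetase genes, Cars was the 1 called (6.67%, beside 7.06% of all genes tested). Among nuclear receptors, Ppara was higher, and Pparg was lower by 2.39-fold (1.75 to 3.31), while Hnf4a, Nr1h4 and Nr1i2 had log2 ratios of 0.45, 0.11 and 0.32.

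Hepatokine and growth factor genes had 1 of 17 called lower, Inhba, an activin subunit gene, by 4.67-fold (3.15 to 7.16), and 1 higher, Fgf21, joined by Inhbe with TMM factors. The called share of that list was 11.8%, beside 7.06% of all genes tested. Shares of other lists in this paragraph stand beside the same value, and several lie close to it. In coagulation 1 of 18 was called (5.56%), Pros1, which encodes protein S, higher by 2.14-fold (1.97 to 2.33). Of 5 major urinary protein genes tested, all close copies, Mup11 was called, higher by 2.54-fold (2.34 to 2.77). Among heat shock genes 1 of 14 was called (7.14%), Cryab, lower by 2.12-fold (1.16 to 4.08). Hsph1 and Hspb1 had log2 ratios of 0.96 and 0.91. With TMM factors Cryab lost its call, at -0.99, and Hsph1 and Hspb1 were called higher, at 1.06 and 1.01. Periportal hepatocyte genes had 3 of 15 higher and 0 lower. These were Asl, Pck1 and Sds, already counted above in other lists. Pericentral genes had 1 of 15 higher, Oat, also counted above, and 1 lower, Lgr5, by 2.72-fold (1.90 to 3.98). With TMM factors the pericentral gene Slc1a2 was also called higher. Among apolipoproteins and lipoprotein handling 1 of 19 was called (5.26%), Pltp, lower by 2.09-fold (1.84 to 2.39). With TMM factors Pltp lost its call, at -0.97, and Apoa4 was called higher, at 1.08.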
